A study of Mus musculus with 4 samples.

Results

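The transforming growth factor beta (TGF-beta) and activin signals described here are 10 mouse genes, chosen by name, with earlier results of these data known. They are the ligand genes Tgfb1, Tgfb2 and Tgfb3, the receptor genes Tgfbr1, Tgfbr2 and Tgfbr3, the activin subunit genes Inhba and Inhbb, and the activin receptor genes Acvr2a and Acvr2b. All 10 were measured, out of 19938 genes on the array that had a probe set naming them alone, and each had exactly 1 probe set. The cells came from the dermal papilla, the condensed mesenchyme around which the hair bulb forms, in skin of mice at postnatal day 5. They had been sorted for green fluorescence driven by Sox2 and for integrin alpha 9, so animals of both genotypes carried the Sox2 reporter. One group was heterozygous for Sox2 (Het, 2 arrays) and the other had a conditional knockout of Sox2, a SOX family transcription factor (cKO, 2 arrays). The sources used here do not give the Cre driver, the strain or sex of the animals, or whether animals were pooled. The labels name the arrays of each group as biological replicates, without saying how many animals each one holds. How well the array-to-array variation behind the p-values stands for differences between animals is therefore unknown.

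Every value is a log2 value relative to the median of the 4 arrays for that probe set. Such values hold differences between arrays and no expression level, so neither the abundance of a gene nor the presence of the papilla's defining markers can be read from them. Centring on a median of 4 also makes the middle 2 values of each probe set equal in size and opposite in sign, as they are for the 10 genes. Over all probe sets the SD of the difference between any 2 arrays lay between 0.18 and 0.26. Sox2, the targeted gene, measured 0.96 in Het replicate 1, 0.87 in Het replicate 2, -0.87 in cKO replicate 1 and -0.94 in cKO replicate 2. Its difference of -1.81 ± 0.06 (SE, n = 2 arrays per group) was not called by limma after adjustment over all genes (adjusted p = 0.345). Where its probe set lies relative to the deletion was not examined here.

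As background, TGF-beta dimers are secreted in a latent form that is held in the matrix until released. A free ligand binds the type II receptor encoded by Tgfbr2, which then phosphorylates the type I receptor encoded by Tgfbr1. Activins, dimers of the subunits encoded by Inhba and Inhbb, use the type II receptors of Acvr2a and Acvr2b, and both branches pass the signal to the same SMAD proteins. In the hair follicle, TGF-beta 2 from the papilla is known to act on the stem cells next to it when a new growth phase starts, and TGF-beta 1 is best known there for promoting regression.

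None of the 10 genes passed the comparison of cKO with Het. Limma's moderated test, with Benjamini-Hochberg adjustment over all genes and a threshold of 0.05, called 0 of 10, and 0 of all 19938 genes (0%), with a smallest adjusted p of 0.936 among the 10. At an unadjusted p under 0.05 there was 1 of the 10, Tgfbr3, against 5.28% of all genes. The unmoderated statistic from the same model put 0 of the 10 under that limit, against 937 of all 19938 genes. By sign, 6 of the 10 had a mean difference above 0, as did 52.3% of all genes, and 4 had one below 0, as did 47.7%. The median difference was 0.07 for the 10 genes and 0.0034 over all genes. In absolute size the medians were 0.15 and 0.047. The cKO arrays both lay above the Het arrays in 2 genes, Tgfb2 and Tgfbr3, where 17.8% of all genes did so, and both lay below them in 2 genes, Tgfb1 and Tgfbr2, where 15.6% of all genes did so. Together these are 4 of 10 genes without overlap, against 33.5% of all genes, a share near the background. With 2 arrays against 2, an exact two-sided permutation test cannot give a p below 0.333.

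**Figure D1:**
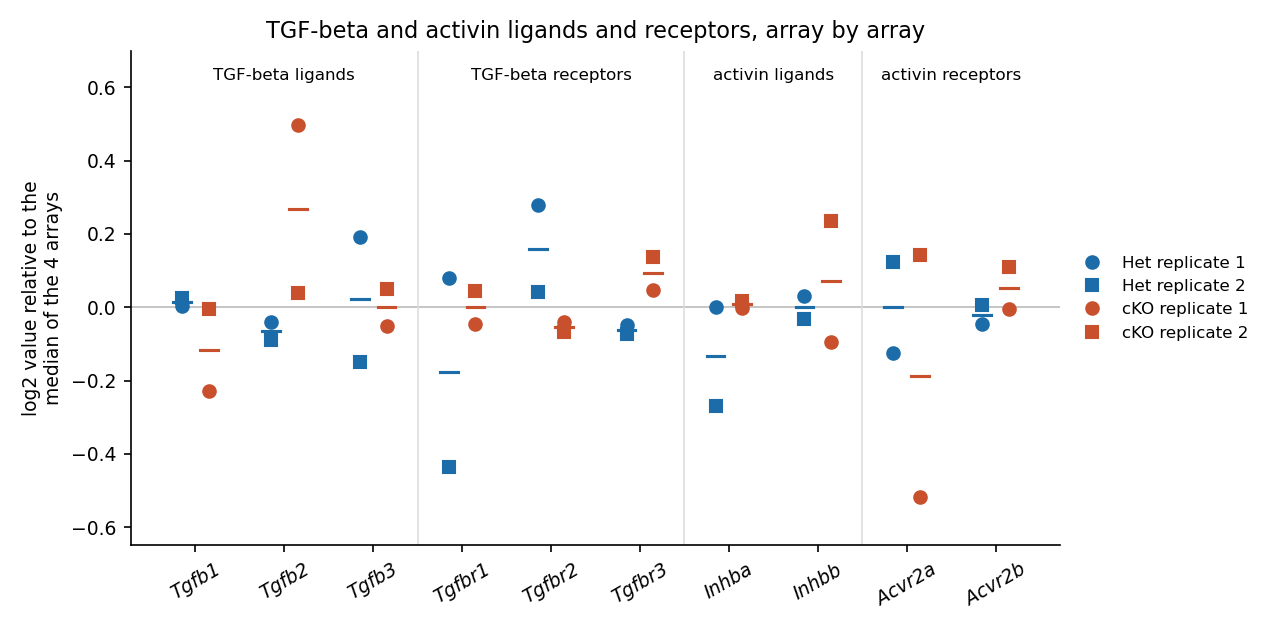
Log2 value relative to the median of the 4 arrays (vertical axis) for each of the 10 genes, with Het in blue and cKO in orange, circles for replicate 1, squares for replicate 2 and short bars for group means. The blue and orange points separate for Tgfb1, Tgfb2, Tgfbr2 and Tgfbr3, and single arrays stand far out for Tgfb2 (cKO replicate 1 at 0.50), Tgfbr1 (Het replicate 2 at -0.44) and Acvr2a (cKO replicate 1 at -0.52).

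The TGF-beta ligand genes went different ways. Tgfb2, which encodes the ligand with the best known part in the papilla, measured -0.040 in Het replicate 1, -0.088 in Het replicate 2, 0.50 in cKO replicate 1 and 0.040 in cKO replicate 2. Pairs of values below follow this order of replicates. Both cKO arrays lay above both Het arrays, but cKO replicate 1 lay much further out than replicate 2. The difference of 0.33 ± 0.18 (SE, n = 2 per group), or 1.26-fold, was the largest of the 10 in size, at percentile 96 of absolute differences over all genes. It did not pass (adjusted p = 0.968 by limma), and its 95% interval ran from -0.18 to 0.85. Leaving out cKO replicate 1 shrank it to 0.10, and leaving out cKO replicate 2 enlarged it to 0.56. In bulk RNA of sorted cells, a change in the share of cells that make a transcript and a change in transcript per cell cannot be told apart.

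Tgfb1, the ligand gene linked to follicle regression, stood at 0.0037 and 0.025 in Het and at -0.23 and -0.0037 in cKO. The groups did not overlap, though Het replicate 1 and cKO replicate 2 were only 0.0074 apart. The difference of -0.13 ± 0.09 (SE, n = 2 per group) became -0.018 without cKO replicate 1 and -0.24 without cKO replicate 2. Tgfb3, the third isoform, stood at 0.19 and -0.15 in Het and at -0.051 and 0.051 in cKO. Here the Het arrays enclosed the cKO arrays, and the mean difference was -0.021 ± 0.138. Its sign turned without Het replicate 1 (0.15), without cKO replicate 1 (0.030) and under quantile normalization of the arrays (0.017).

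Letters before the start sites of 2 of these genes are shown because the deleted gene encodes a SOX factor. They are Tgfb2, with the largest positive difference, and Tgfbr2, described next, with the largest negative one. Each is the 250 bases before the transcription start in RefSeq (GRCm38.p6), read 5′ to 3′ on the gene's strand. Capitals mark a match to ACAAAG or ACAATG on either strand, short forms of the core that SOX proteins, and also TCF and LEF proteins, can bind. Tgfb2 lies at chr1:186705990-186706239 on the minus strand, and Tgfbr2 at chr9:116175364-116175613 on the minus strand.
Tgfb2: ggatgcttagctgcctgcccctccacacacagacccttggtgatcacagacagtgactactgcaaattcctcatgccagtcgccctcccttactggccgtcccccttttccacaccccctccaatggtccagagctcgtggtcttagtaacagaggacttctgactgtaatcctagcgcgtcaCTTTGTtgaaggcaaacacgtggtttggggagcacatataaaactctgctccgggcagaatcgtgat
Tgfbr2: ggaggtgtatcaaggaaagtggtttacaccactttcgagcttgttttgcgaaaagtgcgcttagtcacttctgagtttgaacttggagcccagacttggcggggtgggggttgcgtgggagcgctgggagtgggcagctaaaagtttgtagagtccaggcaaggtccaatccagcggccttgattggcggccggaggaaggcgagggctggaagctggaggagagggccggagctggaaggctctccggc
The Tgfb2 window held 1 match, CTTTGT at position -67 counted back from the start site, and the Tgfbr2 window held 0. Of the 10 genes, 8 had an entry in the promoter table (Tgfb3 and Tgfbr3 had none), and 4 of the 8 held a match in at least 1 entry. Over all 32851 windows of this length, 25.2% held one, and 28.2% of genes did so in at least 1 entry. These matches are letters in a window and say nothing of binding.

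The receptor genes were divided too. Tgfbr2, which encodes the type II receptor that first binds TGF-beta, stood at 0.28 and 0.040 in Het and at -0.040 and -0.067 in cKO. Both cKO arrays lay below both Het arrays, with Het replicate 1 apart from the other 3. Its difference of -0.21 ± 0.10 (SE, n = 2 per group), or 1.16-fold lower, had a 95% interval from -0.50 to 0.071 and did not pass (adjusted p = 0.958, limma). Without Het replicate 1 it shrank to -0.094, and without Het replicate 2 it grew to -0.33.

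Tgfbr3 encodes betaglycan, a co-receptor that presents TGF-beta 2 in particular to the signalling receptors and also binds inhibin. It stood at -0.048 and -0.074 in Het and at 0.048 and 0.14 in cKO. Tgfbr3 was the 1 gene of the 10 whose group difference, 0.15 ± 0.05 (SE, n = 2 per group), exceeded the gap between the arrays of both groups, 0.026 in Het and 0.090 in cKO. Over all genes, 21.7% did so. Its unadjusted p was 0.0429 by limma's moderated test and its adjusted p 0.936, with a 95% interval from 0.0084 to 0.30 before any adjustment. Leaving out any 1 array kept its difference between 0.11 and 0.20.

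Tgfbr1, the type I receptor gene, stood at 0.081 and -0.44 in Het and at -0.045 and 0.045 in cKO. Het replicate 2 lay far below the other 3 arrays, and the groups overlapped. The mean difference of 0.18 ± 0.20 turned to -0.081 when Het replicate 2 was left out.

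For activin, both subunit genes had overlapping groups. Inhba, which encodes the subunit of activin A, stood at 0.0014 and -0.27 in Het and at -0.0014 and 0.017 in cKO. Of the 4 arrays 3 were nearly level and Het replicate 2 was low, so that the difference of 0.14 ± 0.11 (SE, n = 2 per group) shrank to 0.0065 without it. Inhbb, which encodes the subunit of activin B, stood at 0.031 and -0.031 in Het and at -0.094 and 0.24 in cKO. The cKO arrays enclosed the Het arrays, and the difference of 0.07 ± 0.13 turned to -0.094 without cKO replicate 2.

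The activin type II receptor genes also overlapped. Acvr2a stood at -0.12 and 0.12 in Het and at -0.52 and 0.14 in cKO, the widest range of the 10 genes at 0.66, or percentile 95.4 of ranges over all genes. Its lowest and highest values both came from cKO arrays, and the difference of -0.19 ± 0.27 (SE, n = 2 per group) turned to 0.14 without cKO replicate 1. Acvr2b stood at -0.045 and 0.0054 in Het and at -0.0054 and 0.11 in cKO. It had the narrowest range, 0.15, and a difference of 0.07 ± 0.06 that lay between 0.015 and 0.13 with any 1 array left out.

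**Figure D2:**
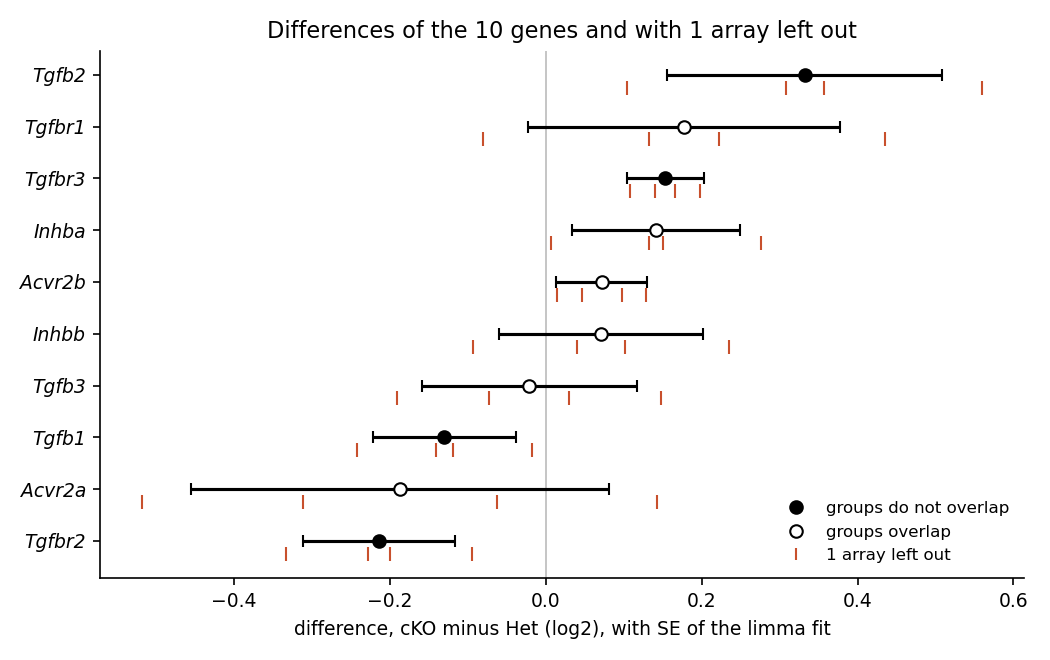
Difference of the group means, cKO minus Het, on the log2 scale (horizontal axis) for the 10 genes, with the SE of the limma fit as bars, filled points where the groups do not overlap, and orange ticks for the same difference with 1 array left out. Tgfbr3 has the tightest ticks of the genes with filled points, from 0.11 to 0.20, and the ticks of Tgfb3, Tgfbr1, Inhbb and Acvr2a lie on both sides of 0.

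The 10 genes varied more between arrays than most genes did. Their median range over the 4 arrays was 0.33, against 0.14 over all genes, and 9 of the 10 lay above the median of absolute group differences. The values hold no levels, so the 10 could not be set against genes of like abundance. Any part of abundance in the wider range was not tested. For 4 of the 10, Tgfb3, Tgfbr1, Inhbb and Acvr2a, the SE was larger than the difference itself.

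**Figure D3:**
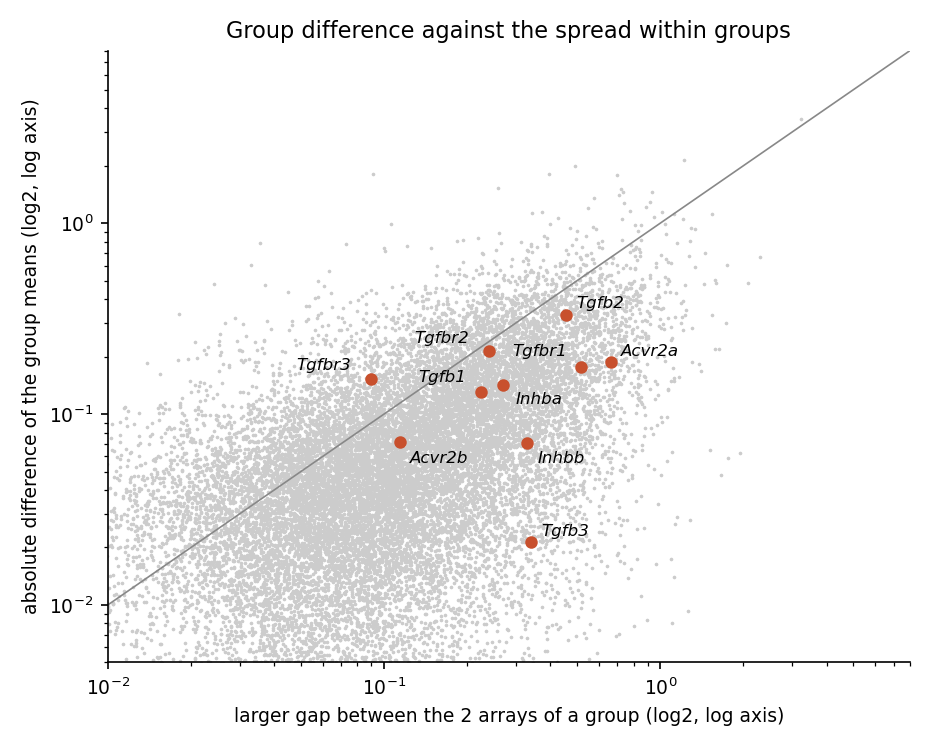
Absolute difference of the group means (vertical axis) against the larger of the gaps between the 2 arrays of a group (horizontal axis), both in log2 units on log axes, for the 10 genes (orange) and all other genes (grey, the smallest values lying outside the axes). The line marks equality, and Tgfbr3, at a difference of 0.15 and a larger gap of 0.090, is the 1 orange point above it.

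Around these genes, 74 further genes of the pathway were listed in 5 groups, of which 70 were measured. Limma called 0 of the 70 over all genes, and 3 had an unadjusted p under 0.05: Fst, Tgif1 and Col1a1. Both cKO arrays lay above both Het arrays in 10 and below them in 16 of the 70, or 37.1% without overlap against 33.5% of all genes. The median difference of the 70 was -0.02. The counts without overlap in each group below stand beside 17.8% of all genes with cKO higher and 15.6% with cKO lower.

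Genes for the storage, activation and trapping of the ligands included the largest single differences in each direction, Ltbp1 and Fst, while their median absolute difference of 0.085 was below that of the response genes, 0.14. Without overlap, 3 of 17 (background 17.8%) were higher and 4 of 17 (background 15.6%) lower, with a median of -0.03. Ltbp1, whose product tethers latent TGF-beta to the matrix, stood at 0.61 and 0.13 in Het and at -0.74 and -0.13 in cKO. Each cKO array lay below each Het array, and the outer arrays of both groups were those of replicate 1. Its difference of -0.80 ± 0.30 (SE, n = 2 per group) did not pass (adjusted p = 0.937, limma). It was -0.50 without cKO replicate 1, -0.57 without Het replicate 1, and -1.11 without cKO replicate 2. It passed when testing was limited to genes whose SD over the 4 arrays was above the median (adjusted p = 0.00362, limma), a filter that selects on spread and so also on the group difference.

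Fst encodes follistatin, a secreted protein that traps activins. It stood at -0.23 and -0.12 in Het and at 0.12 and 0.37 in cKO, and its difference of 0.42 ± 0.11 (SE, n = 2 per group) exceeded the gap within either group. Its adjusted p was 0.934 by limma, and the difference lay between 0.30 and 0.55 with any 1 array left out. Nrros, which encodes a protein that anchors latent TGF-beta on myeloid cells, differed by 0.10 ± 0.06.

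A further group held type I receptors, co-receptors, receptor-associated genes and Bmpr2, a type II receptor gene of BMP signals. Without overlap, 0 of 8 were higher (background 17.8%) and 4 of 8 lower (background 15.6%), with a median of -0.05. Bmpr2 had overlapping groups and differed by 0.09 ± 0.14. Eng, the gene of endoglin, a co-receptor best known from endothelial cells, stood at 0.46 and 0.063 in Het and at -0.12 and -0.063 in cKO. Het replicate 1 was again far above the others, and the difference of -0.35 ± 0.15 shrank to -0.16 without it. Acvr1, a type I receptor gene shared with BMP signals, differed by -0.14 ± 0.06 (-0.090 without Het replicate 1). Tgfbrap1, whose product associates with TGF-beta receptors, differed by -0.08 ± 0.04.

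Other ligand genes that use the activin receptors had a median of -0.02, with 1 of 7 higher (background 17.8%) and 3 of 7 lower (background 15.6%) without overlap. Inha, the subunit gene of inhibin, which opposes activin, differed by -0.23 ± 0.12, and by -0.088 without Het replicate 1. Inhbe and Nodal, each separated, differed by -0.03 ± 0.04 and 0.03 ± 0.04, no more than their SE.

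The SMADs and their regulators, the intracellular arm shared by both branches, had 3 of 17 higher (background 17.8%) and 0 of 17 lower (background 15.6%) without overlap and a median of 0.05. Tgif1, a repressor gene that limits SMAD transcription, stood at -0.069 and -0.26 in Het and at 0.069 and 0.14 in cKO. Both cKO arrays lay above both Het arrays, and the difference of 0.27 ± 0.08 (SE, n = 2 per group; adjusted p = 0.936, limma) was 0.17 without Het replicate 2. Foxh1, a nuclear partner of SMADs, differed by 0.08 ± 0.04, and Smurf1, a ubiquitin ligase gene that lowers SMADs and receptors, by 0.07 ± 0.05.

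Of 21 measured genes that respond to TGF-beta or activin, 3 were higher (background 17.8%) and 5 lower (background 15.6%) without overlap, with a median of -0.03. The largest of these separated differences were those of the collagen genes Col1a2, at -0.37 ± 0.21, and Col1a1, at -0.31 ± 0.10, and of the oxidase gene Nox4, at -0.28 ± 0.12. They came to -0.11 for Col1a2 without cKO replicate 2, -0.18 for Col1a1 without Het replicate 2, and -0.13 for Nox4 without Het replicate 1. Col1a1, Col1a2 and a further collagen gene of this group are also markers of dermal fibroblasts. The 10 fibroblast markers as a list had a median difference of -0.27, with 8 of 10 below 0 (background 47.7%). Of these markers, 2 of 10 were higher (background 17.8%) and 4 of 10 lower (background 15.6%) without overlap. Per array, their median was 0.09 in Het replicate 1, 0.03 in Het replicate 2, 7.1e-04 in cKO replicate 1 and -0.09 in cKO replicate 2, and Lum, the proteoglycan gene with the largest difference of that list, differed by -0.54 ± 0.12. Their part in the collagen differences was not tested.

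**Figure D4:**
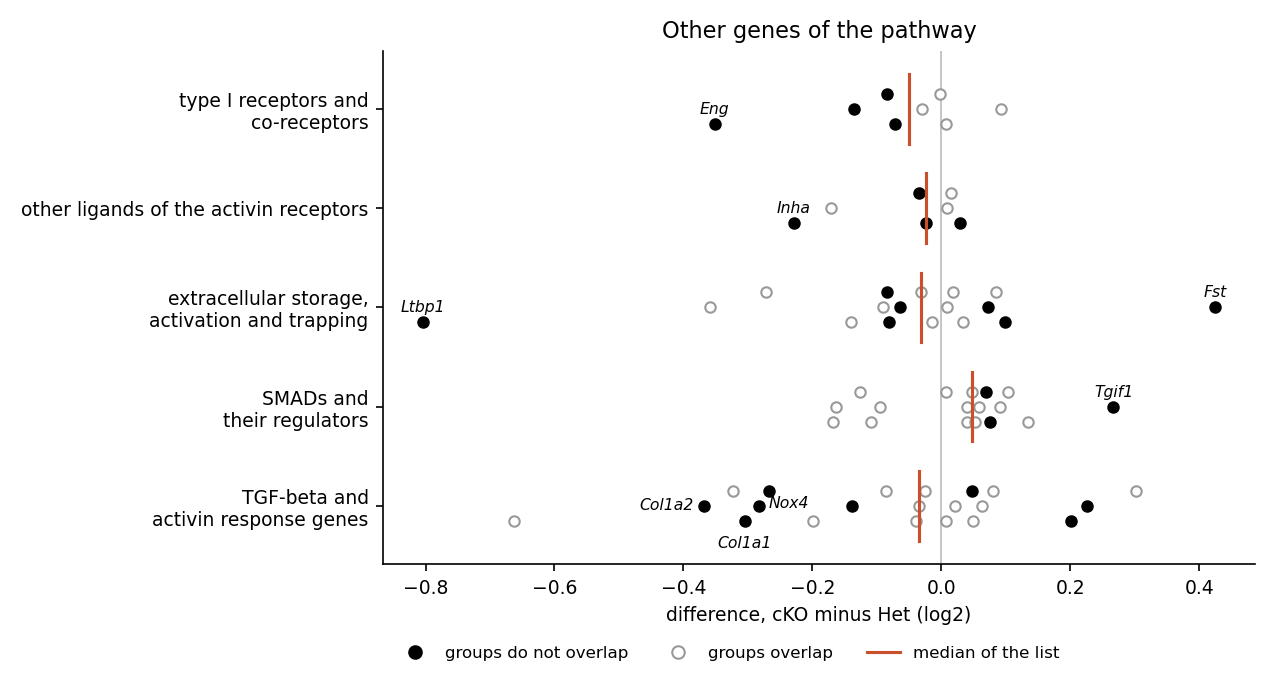
Difference of the group means, cKO minus Het, in log2 units (horizontal axis) for 70 further genes of the pathway in 5 groups, filled where the groups do not overlap, with an orange line at each median. Ltbp1 at -0.80 and Fst at 0.42 lie furthest out among the filled points, and all 5 medians lie between -0.05 and 0.05.

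Single arrays stood apart in ways that touch the 10 genes. Het replicate 2 held the lowest value in 5 of the 10, Tgfb2, Tgfb3, Tgfbr1, Tgfbr3 and Inhba, against 21.6% of all genes, and cKO replicate 2 held the highest in 5, against 31.1%. Het replicate 2 was also the array with the highest value in 11 of 12 keratinocyte markers and in 7 of 8 melanocyte markers. The keratinocyte median was 0.41 there and between -0.06 and -0.0050 in the other 3 arrays, with Krt5 at 0.97 and Krt15 at 0.78. The melanocyte median was 0.15 there, with Mlana at 1.14 and Dct at 0.42, and -0.11 in Het replicate 1. By group, 11 of 12 keratinocyte markers had a mean difference below 0 (background 47.7%), with a median of -0.15. Without overlap, 0 of 12 were higher (background 17.8%) and 2 of 12 lower (background 15.6%). Of the melanocyte markers, 5 of 8 lay below 0 and all 8 had overlapping groups. Summed levels and absent markers cannot be given from centred values, and the part of these cells in the low values of Het replicate 2 was not tested. As stated above, Tgfbr1 and Inhba lost their positive differences, or nearly so, without this array.

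In other marker lists no array stood out by its median as Het replicate 2 did for keratinocytes, but single genes differed widely. The medians of 11 immune markers lay between -0.01 and 0.0070 in the 4 arrays and those of 9 endothelial markers between -0.03 and 0.01. The 14 dermal papilla markers had medians of 0.05 and -0.07 in Het and of 0.08 and 0.06 in cKO. These medians hide members that went both ways: 5 of 14 were higher (background 17.8%) and 2 of 14 lower (background 15.6%) without overlap, 4 of 14 had an unadjusted p under 0.05 (background 5.28%), and the median absolute difference was 0.31. Ndnf, a secreted factor gene, differed by 1.08 ± 0.50, and by 0.60 without cKO replicate 2 or 0.62 without Het replicate 1. Vcan, the gene of the matrix proteoglycan versican, differed by -0.77 ± 0.26. The 7 Schwann cell and glial markers had medians of 0.09 and 0.02 in Het and of -0.0067 and -0.11 in cKO, with 3 of 7 lower without overlap (background 15.6%). Of these markers, 4 of 7 had overlapping groups and 2 of 7 a mean difference above 0 (background 52.3%). Their largest differences were those of Egr2, a transcription factor gene of myelinating Schwann cells, at -1.35 ± 0.23, and of the glial lipid carrier gene Fabp7, at -0.82 ± 0.08. The part of these cells in the differences of the 10 genes was not tested. The 6 dermal sheath and smooth muscle markers lay at 0.0068 and 0.05 in Het and at -0.07 and -0.0018 in cKO, and the 6 Merkel cell markers between -0.02 and 0.02. Limma called 0 genes of these lists over all genes.

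The groups also differed in sex-linked transcripts. Xist, the RNA behind X inactivation in females, measured -4.08 and -0.85 in Het and at 0.85 and 1.23 in cKO, and the Y-linked Eif2s3y at 1.18 and 0.79 in Het and at -0.87 and -0.79 in cKO. Neither passed limma's test over all genes (adjusted p = 0.937 and 0.885). Kdm5d and Uty, also Y-linked, differed by -0.75 ± 0.14 and -0.59 ± 0.14. Without overlap, 1 of the 4 measured sex-linked genes was higher (background 17.8%) and 3 of 4 were lower (background 15.6%). For every difference above, genotype and a different mix of sexes therefore cannot be told apart in these 4 arrays.

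**Figure D5:**
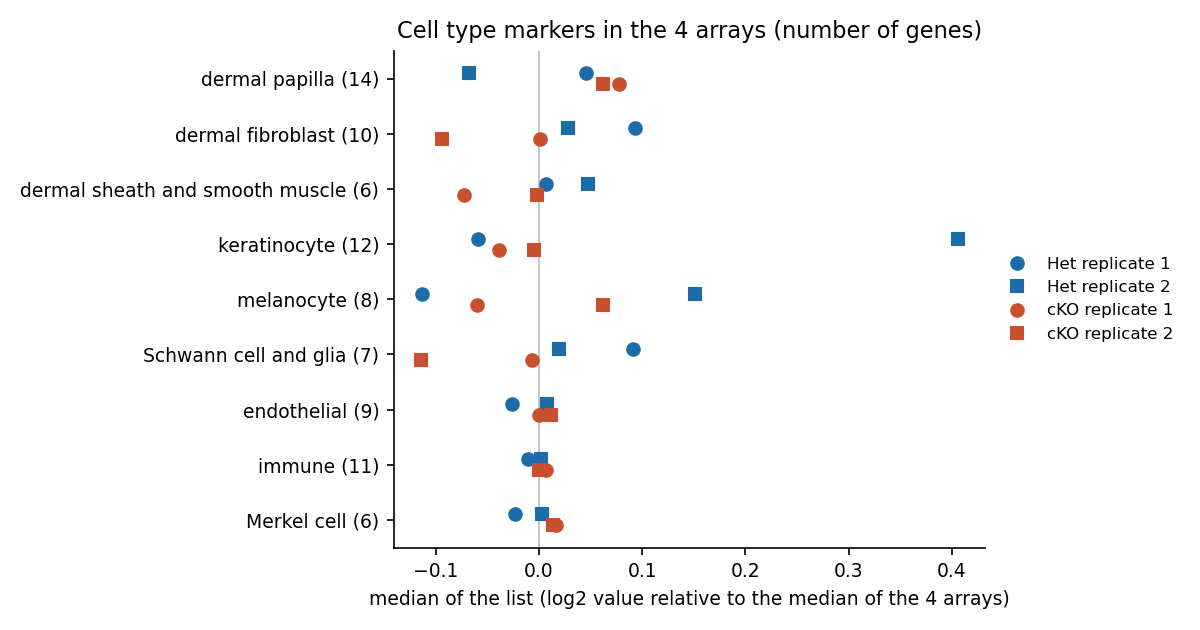
Median log2 value relative to the median of the 4 arrays (horizontal axis) of 9 lists of cell type markers, with the number of measured genes in brackets, Het in blue, cKO in orange, circles for replicate 1 and squares for replicate 2. Het replicate 2 lies far to the right for the keratinocyte markers, at 0.41, and is also the highest for the melanocyte markers, at 0.15.

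The genes whose values over the 4 arrays were most like those of Tgfb2 were sought among all genes by Euclidean distance. In order they were Zfp574 at a distance of 0.026, Agtpbp1 at 0.050, the X-linked Eif2s3x at 0.063, Snord52 at 0.065 and Adgrl3 at 0.072. Each had cKO replicate 1 between 0.47 and 0.53 and the other 3 arrays between -0.14 and 0.05, so the likeness rests mainly on 1 array. Without cKO replicate 1 their differences lay between 0.079 and 0.11, as did that of Tgfb2 at 0.10. The genes were chosen for closeness over these same values, so this likeness was fixed by the choice.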

How the data were processed

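RNA of sorted dermal papilla cells, 2 Het and 2 cKO samples, was amplified, biotin-labelled (per the labels' protocols) and hybridised to 1 array per sample. Per the submitters' processing notes, the authors used RMA, which gives log2 values, before depositing the table. The table itself names no log base, and log2 was assumed for every fold. Each of the 28853 probe sets had a median of 0 over the arrays, within 1e-06; the sources used here do not describe this centring step or the software version.

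The platform annotation named 1 gene for 21789 probe sets, several for 1621 and none for 5443. Gene values are means over probe sets naming that gene alone. A filter on dim probe sets was not possible. The test was limma 3.58.1 under R 4.3.3 (eBayes on a group term, two-sided, Benjamini-Hochberg over all genes). The fit has 2 residual degrees of freedom and the prior adds 1.52; it was tested on simulated data. Intervals are at 95%. The number of arrays limits the precision.

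The 10 genes, the lists and the motifs were chosen with earlier results of these data known. Named genes were, by rule, the 10, Sox2, the 3 largest separated differences of each pathway group, the 2 largest of each marker list (given for some lists), and the 5 genes nearest to the largest separated difference. Figures used matplotlib 3.10.9.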

Additional observations from a re-analysis of the deposited data

How the results depend on the processing

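Of 100 recalculated differences of the 10 genes (10 alternatives each), 94 kept their sign and their failure to pass, and 6 turned sign. The latter were Tgfb3 under quantile normalization (0.017), and otherwise single arrays left out, which gave ranges of -0.19 to 0.15 for Tgfb3, -0.081 to 0.44 for Tgfbr1, -0.094 to 0.24 for Inhbb and -0.52 to 0.14 for Acvr2a. Signs could not turn under the replicate block, limma's robust prior, the unmoderated statistic or the limit on SD, which leave each difference unchanged. Nor can a gene whose groups do not overlap turn sign when 1 array is left out. The count of 94 was thus partly fixed in advance and does not measure stability. Among the markers, Krt5 ranged from -0.97 to 0.27, Krt15 from -0.78 to 0.038, Mlana from -1.17 to 0.57 and Dct from -0.47 to 0.084. The count of the 10 genes whose groups do not overlap, 4 with all arrays, lay between 6 and 8 with 1 array left out, when 62% to 71.1% of all genes separate. With only genes whose SD over the arrays was above the median, limma called 116 genes and 20 probe sets but 0 of the 10; Sox2 (adjusted p = 2.5e-13), Ltbp1 (0.00362), Xist and Eif2s3y (2.5e-13 each), Egr2, Fabp7, Ndnf and Vcan then passed. That filter selects on spread that includes the group difference, and moved the prior from 1.52 to 66.5 degrees of freedom. The other alternatives called 0 genes. With the replicate number as a block, 0 genes and 0 of the 10 passed. There, 0 of the 10 had an unadjusted p under 0.05 in limma's test, against 1625 of all 19938 genes. Arrays of the same number deviated together (r = 0.31 over 28853 probe sets), but with 2 pairs this is only a hint. The labels give the number as that of a biological replicate and do not say whether equal numbers were paired. Other background correction and a filter on dim probe sets could not be run on these values.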

Other observations

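In the 4 genes with a match to ACAAAG or ACAATG before a start site, the differences were 0.33 (Tgfb2), 0.18 (Tgfbr1), 0.14 (Inhba) and 0.07 (Acvr2b). In the 4 with an entry and no match they were -0.13 (Tgfb1), -0.21 (Tgfbr2), -0.19 (Acvr2a) and 0.07 (Inhbb). The groups overlapped for Tgfbr1, Inhba and Acvr2b with a match, and for Acvr2a and Inhbb without one. Without Het replicate 2, Tgfbr1 turned to -0.081 and Inhba shrank to 0.0065. Acvr2a turned to 0.14 without cKO replicate 1, and Inhbb to -0.094 without cKO replicate 2. The split was seen after the values were known, the motif is common, none of these differences passed, and no test was made.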
